A study of Schizosaccharomyces pombe with 2 samples.

Results

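The genes described here carry fission yeast symbols that begin with mug, meu, mei, mes, mcp, moa, rec, spo, spn, sme or ssm followed by a digit. The symbols are those of the RefSeq annotation of Schizosaccharomyces pombe, assembly ASM294v3, and the rule uses names only. The annotation holds 160 such genes, and 30 of them are among the 1144 genes counted in the deposited files. They comprise 15 mug genes, 5 meu genes, 4 rec genes, 2 mcp genes, 2 septin genes of the spn series, spo13 and mes1. The bouquet, recombinase and activator genes dmc1, mfr1, mde2, bqt1 and bqt3 do not belong to them.

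Splicing was measured with MPE-seq, multiplexed primer extension sequencing. In this assay a pool of gene-specific primers next to introns starts reverse transcription, so that reads fall on splice junctions and introns. The single group was a wild-type strain labelled Bioneer WT, taken in log phase in YES, a rich medium, at 30 °C and an OD600 of 0.8. It comprises 2 libraries, WT_A and WT_B, called replicate 1 and replicate 2. The labels give no mating type, no starvation and no second condition, and leave unstated if 2 cultures were grown, so differences between the libraries may be technical.

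Fission yeast enters meiosis when starved cells of opposite mating type have fused, and then runs through recombination, 2 nuclear divisions and spore formation. The names mug (meiotically upregulated gene) and meu (meiotic expression upregulated) were given to genes whose transcripts accumulate in that programme. In growing cells transcription factors such as Mei4 are missing, and the RNA-binding protein Mmi1 directs meiotic transcripts that carry its recognition motif to nuclear degradation. For several meiotic genes, splicing itself is known to be efficient only in meiosis.

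Each gene has 3 deposited counts per library, named exonic, mature and premature. The unspliced share is the percentage of premature counts among mature and premature ones. Of the markers listed for meiotic and growing cells, mei4, rec8, spo5, act1, cdc2 and tub1 were not analysed here. The recombinase gene dmc1 and mde2, which were counted, averaged 99.4% and 94.5% unspliced. Replicate 1 held 5796068 exonic counts and replicate 2 held 10009017. Of the 30 genes, 13 had at least 50 mature and premature counts in each library and are called measured here, 16 had fewer, and rec15 had no count of any class. Just inside this minimum lay mug37 with 54 and 91 counts and mug30 with 55 and 55. Just outside it lay meu14 with 42 and 87 and mug45 with 39 and 60.

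The meiotic genes fell into a poorly spliced and a well spliced set with few values between. Of the 13 measured genes, 8 were over 50% unspliced on the mean of both libraries (61.5%), against 85 of all 864 measured genes (9.84%). Only rec14 was under 5%, against 330 of all measured genes (38.2%). The median was 69.5% for the meiotic genes and 7.63% for all measured genes. With the libraries pooled and at least 20 counts required, 25 meiotic genes could be placed. Of these, 15 (60%) lay between 63.4% and 98.1% and 10 between 1.12% and 27.3%, and none lay between these ranges. Of all 1058 genes treated alike, 129 were over 50% unspliced (12.2%). Intervals of single genes reach into the gap, as for mug15 with 20 counts (43.3 to 81.9). The series has no second condition, so these are descriptions without a test.

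The introns of 13 of these genes are printed here, chosen by their unspliced share and by whether they hold the letters CTAAC, so that both can be read side by side. They were read from the RefSeq genome ASM294v3 by the annotated exon ends, 5′ to 3′ on the strand of the gene. Capitals mark the 6 bases of the 5′ splice site, the last 3 bases, and every CTAAC between them, which matches the usual branch point of fission yeast introns. Which build the authors used was not stated, and the counts do not say which intron they belong to. Each value is read as that of the single annotated intron.

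The first set is poorly spliced and lacks CTAAC. It holds mug95 (SPAC1250.02, 85 nt, chrI:5099513-5099597, minus strand), mug30 (SPBP8B7.27, 44 nt, chrII:3688773-3688816, plus strand) and mug98 (SPBC15D4.12c, 38 nt, chrII:3032058-3032095, minus strand). With them are mug130 (SPAC8F11.05c, 63 nt, chrI:2861355-2861417, minus strand) and meu32 (SPAP27G11.08c, 50 nt, chrI:1622196-1622245, minus strand). All 5 introns lie in coding sequence.
mug95: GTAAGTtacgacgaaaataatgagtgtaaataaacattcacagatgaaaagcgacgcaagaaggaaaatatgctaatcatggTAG
mug30: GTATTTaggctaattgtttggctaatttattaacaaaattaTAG
mug98: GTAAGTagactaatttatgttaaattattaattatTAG
mug130: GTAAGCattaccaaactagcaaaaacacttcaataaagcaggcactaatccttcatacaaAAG
meu32: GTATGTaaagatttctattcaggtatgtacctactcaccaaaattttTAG

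The second set is well spliced and holds CTAAC close to the 3′ end. It comprises mes1 (SPAC5D6.08c, 75 nt, chrI:1499359-1499433, plus strand), rec14 (SPBC32F12.02, 53 nt, chrII:2787267-2787319, plus strand), mcp1 (SPAC1687.10, 52 nt, chrI:920717-920768, plus strand) and mug56 (SPAC26H5.11, 50 nt, chrI:4146979-4147028, plus strand). These are coding introns too.
mes1: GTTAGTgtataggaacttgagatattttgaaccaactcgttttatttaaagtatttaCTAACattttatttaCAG
rec14: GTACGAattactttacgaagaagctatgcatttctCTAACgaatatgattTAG
mcp1: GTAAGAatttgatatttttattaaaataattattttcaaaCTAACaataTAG
mug56: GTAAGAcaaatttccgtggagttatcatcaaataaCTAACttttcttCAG

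The third set goes the other way. The introns of mug37 (SPBC31F10.05, 70 nt, chrII:3760281-3760350, plus strand) and meu26 (SPAC6B12.16, 106 nt, chrI:2443635-2443740, plus strand) hold CTAAC and were poorly spliced. The introns of mug110 (SPBC2G2.10c, 43 nt, chrII:3454418-3454460, minus strand) and mcp7 (SPAC13A11.03, 94 nt, chrI:578587-578680, plus strand) lack it and were well spliced. All 4 are coding introns. The intron of meu10, which holds CTAAC and was poorly spliced, lies in a 3′ UTR and is not printed. Over all genes, the median unspliced share was 7.87% with CTAAC and 8.70% without it.
mug37: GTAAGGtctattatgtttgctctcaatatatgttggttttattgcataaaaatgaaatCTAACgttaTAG
meu26: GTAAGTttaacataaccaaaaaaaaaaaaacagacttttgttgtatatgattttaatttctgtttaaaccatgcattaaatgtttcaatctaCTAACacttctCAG
mug110: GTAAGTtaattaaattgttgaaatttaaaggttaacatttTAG
mcp7: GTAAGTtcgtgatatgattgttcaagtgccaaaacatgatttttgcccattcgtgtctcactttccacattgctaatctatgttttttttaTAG

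The rec genes act in meiotic recombination, and their splicing differed from gene to gene. Rec6 and Rec24 belong to the machinery with which Rec12 cuts DNA at the start of recombination. For rec6, 88 premature and 39 mature counts in replicate 1 gave 69.3% unspliced (95% Wilson interval 60.8 to 76.6), and 110 and 48 in replicate 2 gave 69.6% (62.1 to 76.3). Both libraries thus held more premature than mature counts for rec6. The annotation gives rec6 3 introns of 164, 87 and 85 nt, and the files hold 1 value for the gene. In rec24 the premature counts were 32 and 70 and the mature counts 1 and 9, which pools to 91.1% unspliced (84.3 to 95.1). Its intron measures 140 nt.

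In contrast, rec14 was almost fully spliced. Rec14 is needed for the same DNA breaks, but under the name Ski8 it is also a subunit of the Ski complex, a cofactor of cytoplasmic RNA decay in growing cells. It had 3 premature and 84 mature counts in replicate 1, or 3.45% (1.18 to 9.65), and 6 and 130 in replicate 2, or 4.41% (2.04 to 9.29). Its mean of 3.93% ± 0.681 (SD, n = 2) was the lowest of the 13 measured genes. For rec15, which encodes another protein of the break-forming machinery, every count was 0 in both libraries, so nothing can be said of its splicing. Its annotated intron is overlapped by a protein-coding gene on the other strand.

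The mcp genes were also largely spliced. Mcp7 is the fission yeast Mnd1, which works with Meu13 in pairing homologous chromosomes. The gene mcp7 had 35 premature and 145 mature counts in replicate 1, or 19.4% unspliced (14.3 to 25.8), and 45 and 211 in replicate 2, or 17.6% (13.4 to 22.7). Its sums of 180 and 256 counts were the highest of the 30 genes. The gene mcp1, which encodes a meiotic coiled-coil protein, was at 2.86% (0.787 to 9.83) and 11.1% (6.47 to 18.4), from 2 and 12 premature counts. These intervals overlap, and the difference did not pass the two-sided Fisher exact test (unadjusted p = 0.0503, adjusted p = 0.478 over all 864 genes).

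The 5 meu genes were the most uniform group, with every pooled share above 87%. Meu10 is a GPI-anchored protein of spore wall formation, and Meu14 sits at the leading edge of the growing forespore membrane. The gene meu10 had 51 premature and 6 mature counts in replicate 1 and 82 and 9 in replicate 2, or 89.5% (78.9 to 95.1) and 90.1% (82.3 to 94.7). It is the only gene of the 30 whose annotated intron, of 58 nt, lies in the 3′ UTR, so this intron does not interrupt the protein. The coding intron of meu14, of 41 nt, was at 85.7% (72.2 to 93.3) and 88.5% (80.1 to 93.6), from 36 and 77 premature counts.

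In meu26, meu31 and meu32, no mature read was counted in replicate 1. Replicate 1 had 16 premature counts for meu26, 17 for meu31 and 31 for meu32, which allow an unspliced share as low as 81.3%, 82.4% and 90.3% in that order. Replicate 2 had 21, 26 and 43 premature counts beside 1, 2 and 3 mature counts. The pooled shares were 97.4% for meu26 (86.5 to 99.5), 95.6% for meu31 (85.2 to 98.8) and 96.1% for meu32 (89.2 to 98.7). The summed counts of all 5 meu genes gave a share of 92.6% in replicate 1 (87.6 to 95.7) and of 90.9% in replicate 2 (86.9 to 93.7).

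The 15 mug genes spanned the whole range. The most unspliced was mug95, whose product has no assigned function in the annotation, with 114 premature and 1 mature count in replicate 1 and 146 and 4 in replicate 2. That is 99.1% (95.2 to 99.8) and 97.3% (93.3 to 99.0). Next came mug30, annotated as a ubiquitin-protein ligase, with 52 and 53 premature counts against 3 and 2 mature counts, or 94.5% (85.1 to 98.1) and 96.4% (87.7 to 99.0). In mug37, 49 and 75 premature counts stood against 5 and 16 mature counts, or 90.7% (80.1 to 96.0) and 82.4% (73.3 to 88.9).

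A second tier of mug genes held a clear minority of spliced RNA. The gene mug98, with the shortest intron of the 30 genes, was at 85.1% (75.3 to 91.5) in replicate 1 and 76.6% (67.1 to 84.0) in replicate 2. The gene mug130 was at 79.7% (69.6 to 87.1) and 79.9% (72.7 to 85.5). A protein-coding gene on the other strand overlaps the mug130 intron, and the authors' strand setting is not given, so reads of that gene could enter its counts. Overlap of an intron by an annotated gene of any kind is not particular to mug130 and is counted below. The gene mug74 was at 66.7% (55.6 to 76.1) and 61.2% (52.1 to 69.6), from 52 and 71 premature counts.

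Other mug genes were mostly spliced in growing cells. In mug157 the share was 17.5% (11.3 to 25.9) and 13.5% (8.92 to 19.95), with 85 and 128 mature counts. In mug56, annotated as a spore wall assembly protein, it was 15.9% (9.51 to 25.3) and 11.3% (7.11 to 17.6), with 69 and 125 mature counts. Both values of each gene lay above the median of all measured genes, 7.76% in replicate 1 and 7.39% in replicate 2, and far below those of the poorly spliced genes.

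**Figure D1:**
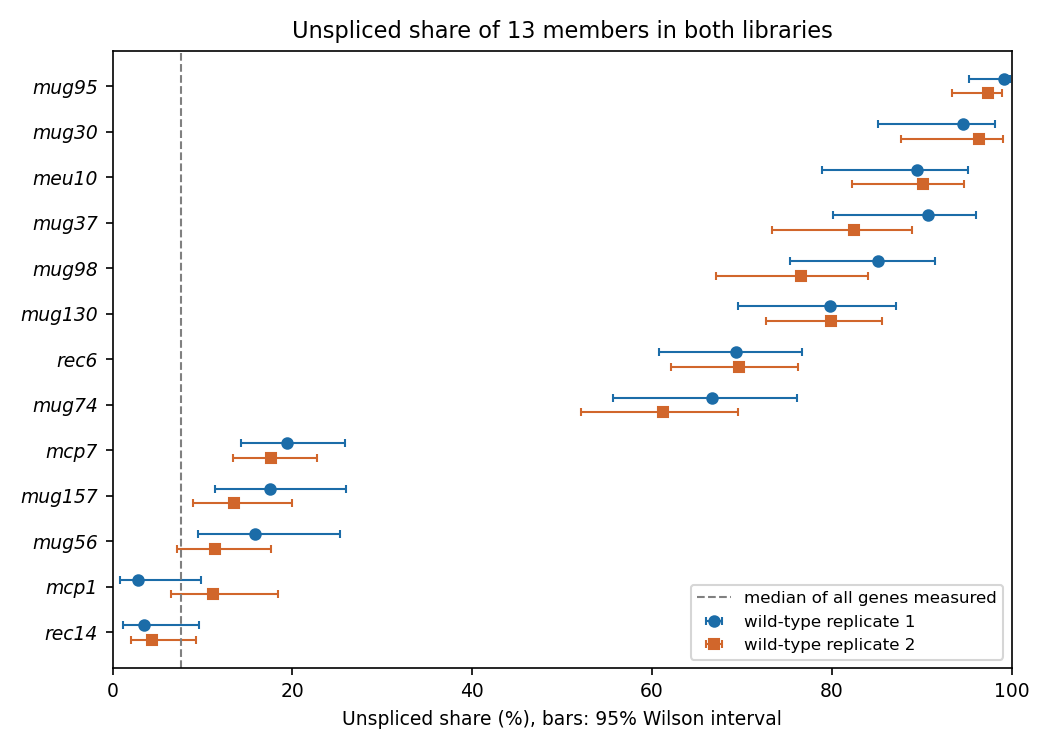
Unspliced share (horizontal axis, percent) of the 13 measured meiotic genes, with circles for replicate 1, squares for replicate 2 and bars for 95% Wilson intervals. The dashed line is the median of all 864 measured genes, 7.63%. From mug95 to mug74, 8 genes lie above 60% in both libraries, and 5 genes lie below 20%.

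Below the minimum, 7 mug genes were described by pooled counts. The gene mug10 had 36 premature and 18 mature counts, or 66.7% (53.4 to 77.8). The gene mug15 had 13 and 7, or 65.0% (43.3 to 81.9), an interval that reaches below 50%. The gene mug121 had 11 premature counts and no mature one, which allows a share as low as 72.7%. At the spliced end, mug45 had 27 premature and 72 mature counts, or 27.3% (19.5 to 36.8), and mug9 had 12 and 76, or 13.6% (7.98 to 22.3). The gene mug4 had 2 and 29 counts, or 6.45% (1.79 to 20.7), and mug110 had 4 and 60, or 6.25% (2.46 to 15.0).

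The gene mes1 had the lowest pooled share of the 25 genes. Mes1 is an inhibitor of the anaphase-promoting complex that lets cells go on from the first to the second meiotic division. Replicate 1 held 1 premature and 38 mature counts, and replicate 2 held 0 and 50, which allows a share of up to 6.0% there. Pooled, mes1 was 1.12% unspliced (0.199 to 6.09). This interval overlaps that of rec14, so which of them was better spliced was not resolved.

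The sporulation and septin genes gave too few counts for a firm share. Spo13 is a component of the spindle pole body needed to start the forespore membrane, and its gene had 2 premature and 10 mature counts in all, or 16.7% (4.70 to 44.8). Spn6 is a septin of sporulating cells. Its gene had 12 premature and 4 mature counts, or 75% (50.5 to 89.8), and a protein-coding gene on the other strand overlaps its intron. Spn4 is annotated as a mitotic septin and acts in cell division. The gene spn4 had 3011 and 4628 exonic counts but no mature count, and 0 and 3 premature counts. The annotation gives spn4 no intron of 20 nt or more.

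**Figure D2:**
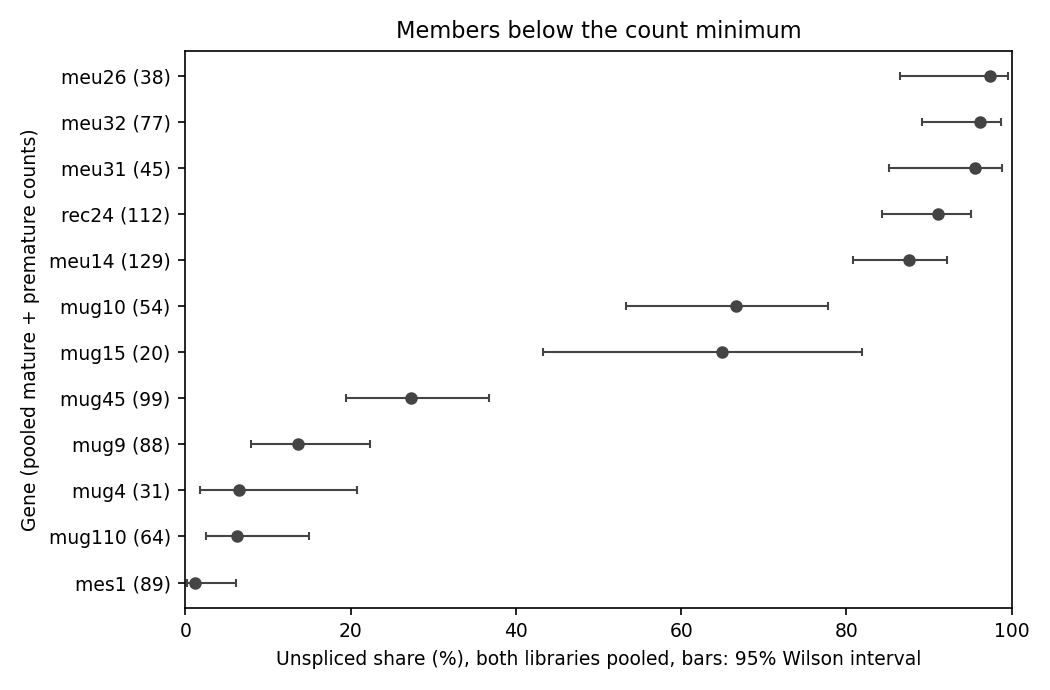
Unspliced share (horizontal axis, percent) of the 12 genes below the minimum that have at least 20 pooled counts, with 95% Wilson intervals as bars and the pooled number of mature and premature counts beside each name. The 4 meu genes and rec24 lie above 87%, mug10 and mug15 at 65.0% to 66.7%, and 5 genes at 27.3% or below.

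Summed over all 30 genes, the counts gave a share of 52.1% in replicate 1 (49.6 to 54.6) and of 50.9% in replicate 2 (48.8 to 52.9). The same sum over all 1144 genes was 7.72% and 6.44%. The 17 genes below the minimum pooled to 55.4% (52.1 to 58.6). In replicate 1 they were at 52.7% (47.3 to 58.0) and the 13 measured genes at 51.9% (49.1 to 54.8). In replicate 2 they were at 57.0% (52.9 to 61.1) and the 13 measured genes at 48.8% (46.5 to 51.2). These sums mix genes of very unlike shares, weighted by their counts, and the intervals cover counting error only. That the intervals of replicate 2 did not overlap is therefore no test between the 2 sets of genes.

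Unspliced shares of the meiotic genes did not differ detectably between the libraries. Of the 13 genes, 7 were lower and 6 higher in replicate 2, and their Wilson intervals overlapped in all 13. By the two-sided Fisher exact test with Benjamini-Hochberg adjustment over 864 genes, none of the 13 passed 0.05, against 14 of all 864 (1.62%). None of the 13 had an unadjusted p under 0.05 either, against 89 of 864. The median SD between libraries was 1.32 percentage points for the 13 genes and 1.02 for all measured genes. With sums of 54 to 256 counts a library, differences of several points were not detectable.

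Most of the meiotic genes had a low exonic level. Exonic counts were scaled to CPM, counts relative to each library's total, and per kb of annotated exon. On this scale their level had a median of 74.3, against 223 for all genes with an annotation, and 22 of the 30 lay in the lowest quartile. The scale assumes reads along the whole exon, whereas the primers of this assay lie next to introns, at positions that were not stated. It is therefore a rough scale, and differences between primers could enter it. Without division by length, the median exonic counts of the 30 genes were 486.5 in replicate 1 and 682 in replicate 2. Those of all genes in the files were 2280.5 and 3585.5. In bulk RNA, fewer cells with a transcript and less RNA per cell cannot be told apart. All 30 genes together took 0.469% of exonic counts in replicate 1 and 0.415% in replicate 2.

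Some of the 30 were well above this level. The highest was mug37, with 4379 and 7046 exonic counts and a level of 597 CPM per kb, which stands 237th among the annotated genes. At this level, mug37 was 85.5% unspliced on pooled counts (78.9 to 90.3). Its exonic counts per mature and premature count were 78.8, against a median of 13.4 for the meiotic genes. A protein-coding gene on the other strand overlaps mug37 outside its intron. Without the strand setting, exonic reads of that gene could enter the level of mug37. Next in level were spn4 at 307 and mug157 at 263. The lowest besides rec15 was spo13 at 17.2, with 61 and 80 exonic counts.

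Across all measured genes, those with few exonic counts were less spliced, and the meiotic genes lie mostly among these. The Spearman correlation of unspliced share and exonic count was -0.46 across the 13 genes and -0.50 across all 864, as a description over genes of the same 2 libraries. In the quartile of measured genes with the fewest exonic counts, 8 meiotic genes had a median of 74.6% and all 216 genes one of 16.9%. In that quartile 6 of the 8 exceeded 50% unspliced, against 44 of the 216. In the next quartile the 3 meiotic genes mug56, mcp1 and mug30 were at 13.6%, 6.98% and 95.5%, against a median of 9.53%. The part of low level in the high shares was not tested.

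**Figure D3:**
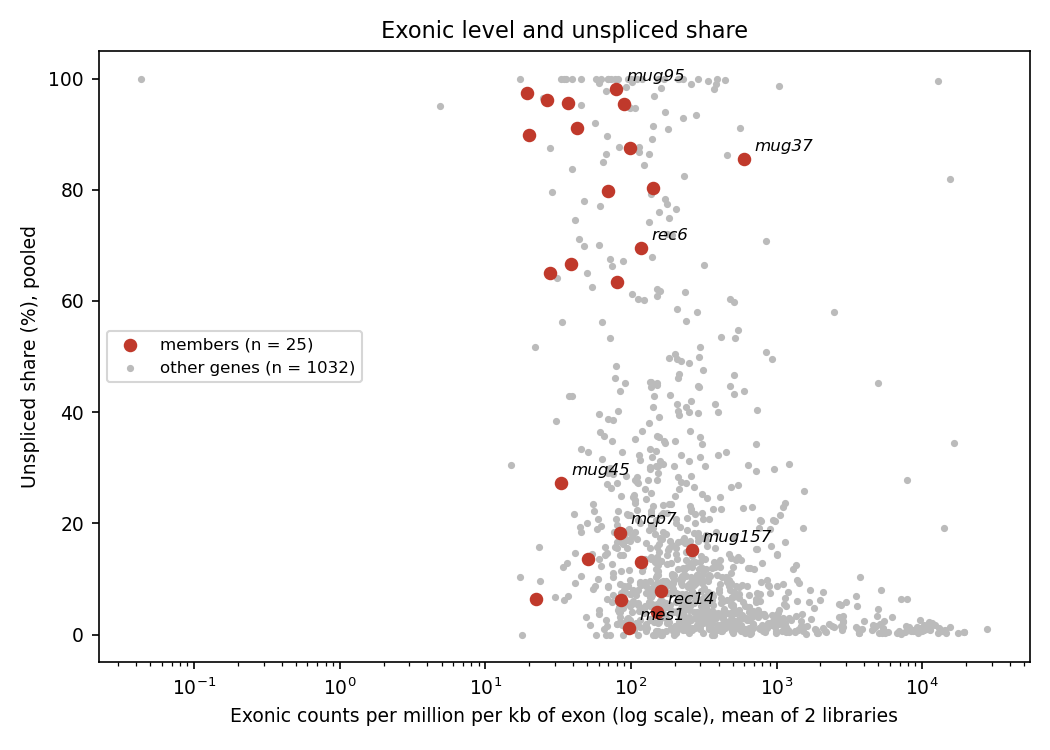
Exonic level (horizontal axis, CPM per kb of exon, log scale) and pooled unspliced share (vertical axis, percent) of 25 meiotic genes (red) and the other genes with at least 20 pooled counts (grey). The red points fall into an upper set from 63.4% to 98.1% and a lower set from 1.12% to 27.3%, and the upper set spans levels from 19.2 to 597.

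Within the meiotic genes, introns with the exact letters CTAAC had lower unspliced shares, a pattern found by search and given without a test. Among the 24 with 1 annotated intron and at least 20 pooled counts, 11 introns held CTAAC and 13 did not. The median unspliced share was 13.6% with CTAAC and 80.4% without it. Of the introns with CTAAC, 3 of 11 exceeded 50%, namely meu26, mug37 and the 3′ UTR intron of meu10. Of those without it, 11 of 13 did, the other two being mcp7 at 18.3% and mug110. The order was the same in each library, with 15.9% and 85.1% in replicate 1 and 13.5% and 79.9% in replicate 2. For the looser form CTNAN, where N is any base, the meiotic genes could not be compared, because only 2 introns lacked it. This form was in 22 of the 24 introns, with a median of 65.8%. The 2 without it were those of meu14 at 87.6% and mug110 at 6.25%. Over all genes, 928 of 1013 introns held it, with a median of 8.46%, against 6.11% for the 85 without it.

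All genes together showed little of this contrast. Among 1013 genes treated alike, the median was 7.87% for 531 introns with CTAAC and 8.70% for 482 without it. With exonic counts no higher than in the lowest quartile, the medians of the meiotic genes were 13.6% for 7 introns with it and 80.1% for 12 without it. Those of all genes were 15.0% for 147 and 18.4% for 167. The meiotic genes without CTAAC had a median exonic level of 78.7 CPM per kb and those with it 97.4. An antisense gene overlapped 10 of the 13 introns without it and 5 of the 11 with it, against 304 of 482 and 291 of 531 in all genes. The part of these in the contrast was not tested, and the absence of these 5 letters does not say that an intron has no branch point.

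**Figure D4:**
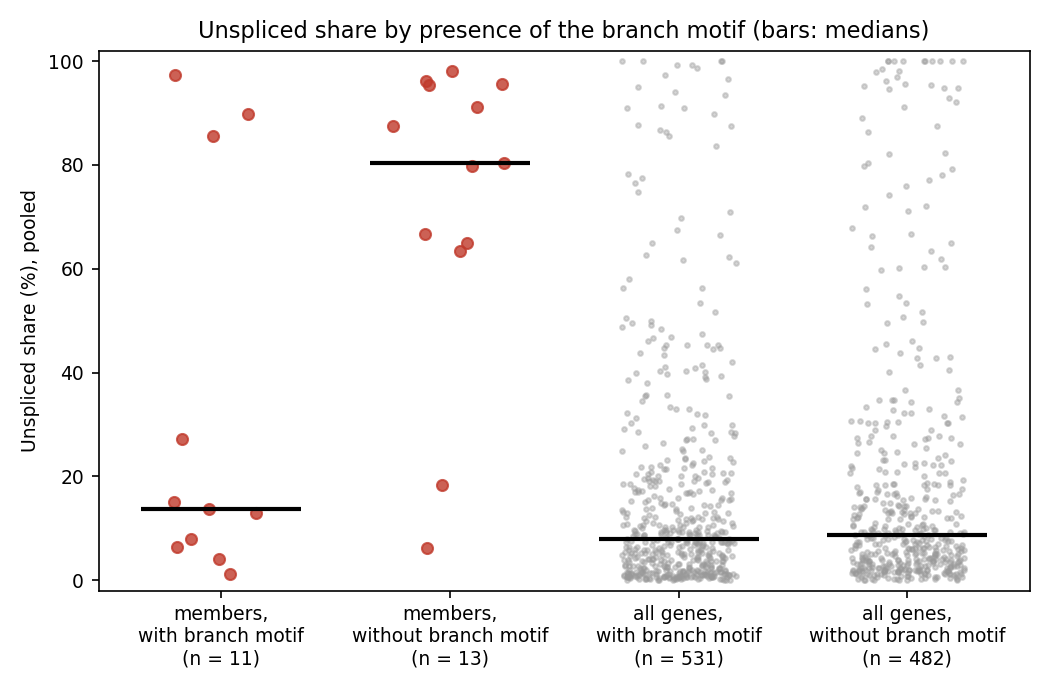
Pooled unspliced share (vertical axis, percent) of genes with 1 annotated intron and at least 20 pooled counts, by whether the intron holds the branch motif CTAAC, for the meiotic genes (red) and all genes, meiotic ones included (grey). Black bars are medians, at 13.6% and 80.4% for the meiotic genes and 7.87% and 8.70% for all genes.

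The 28 single introns of the meiotic genes had a median length of 55.5 nt and a GC content of 29.2%, against 68 nt and 29.2% over 1078 single introns. Of those with at least 20 pooled counts, 3 of 24 were longer than 100 nt (12.5%), against 345 of 1013 (34.1%). Length and unspliced share of the meiotic genes had a Spearman correlation of 0.09 over 24 introns, as a description. A CTAAC was present in 12 of 28 introns (42.9%), against 553 of 1078 (51.3%), and ended a median of 10 nt before the intron's end in both. The common 5′ splice site GTAAGT was found both in mug95 at 98.1% and in mug9 and mug110, at 13.6% and 6.25%. Introns began after a median of 313 exon bases, against 214.

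Every coding single intron of the meiotic genes would stop translation if it were kept, as would most such introns of all genes. In all 27, the reading frame that enters the intron meets a stop codon inside it, against 915 of 1003 (91.2%) such introns in all genes. An antisense lncRNA is annotated over 23 of the 30 genes, against 829 of 1141 (72.7%). An antisense gene of any kind overlaps 19 of the 28 single introns (67.9%), against 637 of 1078 (59.1%). With at least 20 pooled counts, this was so for 11 of the 15 genes over 50% unspliced and 4 of the 10 others. Without a known strand setting, reads of an antisense gene and those of the gene it overlaps cannot be told apart. The part of such reads in the unspliced shares was not tested.

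Motifs of the known meiotic controls were counted in the sequence. The core of the Mei4 box, GTAAACA on either strand, lay within 250 bases before to 50 bases after the annotated start of 10 of the 30 genes (33.3%). It was found in 211 of the 1141 annotated genes in the files (18.5%) and 845 of 5124 protein-coding genes (16.5%). The 10 included mug95, meu26, meu31 and meu14 among the poorly spliced genes and mes1 and mug110 among the well spliced ones. The hexamer TTAAAC, the core of the element bound by Mmi1, occurred 36 times on the sense strand of the exons of the 30 genes. That is 0.799 per kb, against 0.408 per kb over all annotated genes in the files. The exons of 18 of the 30 genes held the hexamer, against those of 531 of the 1141 annotated genes (46.5%). The most occurrences were 5 in mug45 and 4 each in mug4 and mug10, while mug95 and mes1 had none. A match of letters is not a shown site.

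Exonic counts were also compared between the libraries. Scaled to library totals, the two-sided exact binomial test called 15 of 29 genes (51.7%), against 795 of all 1093 tested (72.7%). All 15 were lower in replicate 2, which is 51.7% of the 29 tested, against 699 of the 1093 tested (64.0%). None of the 29 was called higher, against 96 of 1093 (8.78%). The meiotic genes had fewer exonic counts than all genes, by the medians given above, so small differences were harder to detect in them. The portions called therefore do not show that their levels were more stable, and they cannot be set against the test of the shares. With DESeq2 size factors or edgeR TMM factors, which bring the median of all genes near 0, 7 were lower and 2, mes1 and spn6, were higher. Over all 1093 genes, the opposite balance was found, with 149 lower and 254 higher by DESeq2 factors and 164 lower and 246 higher by TMM factors. As log2 of replicate 2 over replicate 1, the median was -0.20 for the 29 genes and -0.13 for all genes, and -0.07 and 0.00 with DESeq2 size factors. The largest difference was in mug45, with 575 and 660 exonic counts and a log2 ratio of -0.59 (adjusted p = 1.08e-11). Both tests set 2 libraries against counting noise and compare no conditions.

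A list of other genes of mating, meiosis, sporulation and meiotic RNA removal held 45 names, of which 11 were in the files and 7 measured. Of the 7, 4 were above 50% unspliced, against 9.84% of all measured genes, and 2 under 5%, against 38.2%, with a median of 94.3%. The 4 were dmc1, mfr1, mde2 and bqt1, which the opening sets apart from the symbol rule together with bqt3. The list was chosen with earlier results of these data known, so its median is no independent support. Those under 5% were bqt3 and the pheromone receptor gene map3, which has no annotated intron. The chitin synthase gene chs1 pooled to 62.6% (54.3 to 70.2), and rem1, which encodes a meiotic cyclin, to 76.5% (52.7 to 90.4) from 17 counts. The forkhead factor gene fkh2, which acts in growing cells, was at 5.81% ± 3.43 (SD, n = 2). None of the 7 differed in unspliced share between the libraries by the Fisher exact test. The list's exonic counts were lower in replicate 2 in 5 of 9 genes tested, against 64.0% of all genes, and higher in none, against 8.78%.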

How the data were processed

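The authors deposited raw, whole-number counts per gene, split into exonic, mature and premature, per the file headers. HISAT2 2.1.0, HTSeq (no version) and Trimmomatic 0.35 are listed, without roles, in the submitters' processing notes. Not given in the sources used here are the class definitions, genome build, annotation, strand setting, primers and any molecular identifiers. Mature was read as spliced and premature as unspliced. Repeated amplification of a molecule would make intervals too narrow, and intervals and limits cover counting error only.

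Systematic gene IDs were matched to RefSeq ASM294v3 regardless of letter case, for 1141 of 1144 genes. An intron had to be at least 20 nt long. Shares are means ± SD of 2 libraries, intervals are Wilson's at 95%, and 3 counts set the limit for a count of 0. Genes under 50 counts in either library were described by pooled counts, with a share from 20 pooled counts or as named. Unspliced shares (Fisher exact test, 864 genes) and exonic counts (exact binomial test, 1093 genes with at least 50 in each library) were compared between libraries, adjusted by Benjamini-Hochberg over all genes tested. Both procedures were tested on simulated data. DESeq2 1.42.0 and edgeR 4.0.16 gave scaling factors only (R 4.3.3). Other steps used pandas 2.3.3, numpy 2.4.6 and scipy 1.17.1 under Python 3.11.15. Every gene that fits the symbol rule was named, and introns to print were chosen from both ends of the unspliced share and by the motif after the values were seen, including those of meu32, mes1, meu26 and mug110, below the minimum. The members and gene lists were chosen with earlier results of these data known.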

Additional observations from a re-analysis of the deposited data

How the results depend on the processing

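The contrast with all genes kept its direction under the alternatives run. The median unspliced share of the measured meiotic genes was 66.7% at a minimum of 20 counts (20 genes, against 8.35% for all genes), and 69.3% to 69.6% in single libraries. It was 71.9% without rec6 and 66.7% without rec14, mug130 and meu10, both choices made after seeing the data. At a minimum of 200 counts no meiotic gene was left. Over all genes, 8 in place of 14 unspliced shares differed between the libraries when the test was scaled by the median overdispersion of 1.64, and none of them was a meiotic gene. Over all genes, exonic calls numbered 403 with DESeq2 size factors and 410 with edgeR TMM factors, in place of 795, with 149 and 164 lower and 254 and 246 higher in replicate 2. For the pooled share of the genes below the minimum, single libraries gave 52.7% to 57.0%. No paired analysis was possible because the series has a single group. Depth limits the rest, since the meiotic genes had a median of 39 and 58 mature and premature counts in the 2 libraries.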
